A study of Mus musculus with 6 samples.

Results

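The collagen and laminin binding integrins are described here in immortalized mouse podocytes by 9 genes: the collagen binding α subunits Itga1, Itga2, Itga10 and Itga11, the laminin binding α subunits Itga3, Itga6 and Itga7, and the β subunits Itgb1 and Itgb4. They were chosen by name, for the ligand their receptor binds, and the rule uses no measured value, although earlier results of these data were known when it was written. All 9 were found among the 57132 genes of the table, and all 9 were among the 16263 genes that had enough counts to be tested. RNA was sequenced from 3 samples of a WT line (Col4a3+/+) and 3 samples of an AS line (Col4a3-/-), the latter a model of Alport syndrome, in which a chain of the glomerular type IV collagen network is missing. The labels give male mice of 8 weeks as the source and no treatment for any sample. Both lines came from mice that also carried H-2kb-tsA58, a temperature-sensitive T antigen under an interferon-inducible promoter, so that all 6 samples share this transgene. The labels give growth at 33 °C followed by 14 days of differentiation at 37 °C, with 20 U/mL interferon gamma and 10% fetal bovine serum in the medium. The study's methods give a shorter differentiation and no interferon gamma during it, so whether the agent was present while the cells differentiated is not settled. Each genotype was 1 cell line, so genotype and line cannot be told apart. The samples of a line are numbered as sets, which are not stated to be separate cultures, and p-values measure only the spread between these samples.

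Integrins are cell surface receptors made of an α and a β chain, and the α chain largely decides which matrix protein is bound. The α1, α2, α10 and α11 chains carry an inserted domain that binds collagens and pair with β1 only. The α3, α6 and α7 chains bind laminins and also pair with β1, while α6 can instead pair with β4, whose long cytoplasmic tail links hemidesmosomes to keratin filaments. In the glomerulus, α3β1 is the principal receptor by which podocytes hold on to the laminin of the basement membrane.

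The 7 α genes share a short coding stretch that neither β gene holds, and it is shown because it is what the α members have in common in sequence. It encodes the membrane-proximal end of the cytoplasmic tail, and the capitals mark the codons for Trp-Lys and for Phe-Phe. The stretches are from the longest coding transcript of each gene in GENCODE M21 (GRCm38), sense strand, 30 bases each.
Itga1: TGGAAGattggaTTCTTCaaaaggccacta
Itga2: TGGAAGctcggcTTCTTCaaaagacaatat
Itga10: TGGAAGcttggcTTCTTTacccgtaagaaa
Itga11: TGGAAGctcggtTTTTTTaaaagtgccaag
Itga3: TGGAAGtgtgacTTCTTTaagccgacccgc
Itga6: TGGAAGtgtggaTTCTTTaagcgctctagg
Itga7: TGGAAGctgggaTTCTTCaagcgggcgaag
Each gene holds the pattern once. The likeness ends there for read counting: no run of 50 coding bases was shared between any members, while parts of Itga1, Itga6, Itga10 and Itgb4 recur in other annotated genes. These parts were 5.73% of the 50-base coding stretches of Itga1 (in Gm49395), 8.59% of those of Itga6 (in Gm29397) and 5.57% of those of Itgb4 (in B230344G16Rik, on the opposite strand), and these other genes were all below 1 CPM.

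The libraries held 45417221 to 54290968 counted reads each. The deleted gene was lower in AS samples, as labelled, but not absent. Col4a3 was at 938, 1052 and 1272 CPM in WT and at 62.4, 61.2 and 82.9 CPM in AS samples (log2 fold change -3.98, adjusted p = 1.31e-07 by edgeR). The AS level was 0.063 of the WT level, and the source of these remaining reads was not tested. CPM are counts scaled to the library size after TMM normalization. WT replicate 1 stood apart from the other WT samples, with a chi-square per degree of freedom over genes of 43.0 and 45.2 against them, where they differed from each other by 9.06. It was the WT sample farthest from the WT median in 8 of the 9 members. Some defining podocyte markers were near 0 in both lines: Tcf21 had no count, which still allows 0.0209 CPM in the WT line and 0.0198 CPM in the AS line (3 counts over the group, counting error only), and Nphs1 was at 0.466 and 0.0407 CPM. Others were present and fell, Wt1 from 20.6 to 2.50 CPM, Podxl from 14.1 to 7.25 CPM and Synpo from 803 to 526 CPM (adjusted p = 3.57e-05, 0.0146 and 0.000144 by edgeR), and the smooth muscle gene Acta2 was at 6701 and 6759 CPM. Of 13 podocyte markers 10 were tested, 6 were lower and 1 was higher in AS samples, and their summed level was 1376 to 1595 CPM in WT and 1088 to 1189 CPM in AS samples. Of 8 mesangial and smooth muscle markers, all tested, 4 were lower (summed level 10240 to 12772 and 9231 to 10841 CPM). These were Tagln (4158 to 2859 CPM), Cnn1 (464 to 137 CPM), Pdgfrb (253 to 116 CPM) and Myh11 (29.1 to 3.96 CPM). Acta2 was not called (adjusted p = 0.948 by edgeR). Of 7 parietal epithelial markers 6 were tested and 4 were lower (648 to 675 and 503 to 533 CPM). Of 6 fibroblast markers 4 were tested and 3 were higher (30.1 to 39.1 and 587 to 828 CPM). That sum was mostly Col1a1 and Col3a1. Dcn went from 0.538 to 2.35 CPM, Pdgfra from 0.906 to 0.537 CPM without a call, and Lum was at 0 in all samples. Of the 6 endothelial markers 2 were tested and 2 were lower, and of the 6 leukocyte markers 3 were tested and 1 was lower. Of the 6 tubular markers 3 were tested, 1 was higher and 1 lower. Among all genes tested, 19.6% were called lower and 20.4% higher in AS samples. The part of these markers in the results below was not tested, and in bulk RNA fewer cells of a type and less RNA per cell cannot be told apart.

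In all, 5 of the 9 genes were lower in AS than in WT podocytes, and none was higher. The fall included the principal podocyte laminin receptor chain Itga3, the collagen receptor chains Itga1 and Itga11, and, with less certainty, the α6β4 pair Itga6 and Itgb4. The common partner chain Itgb1 and the low genes Itga2, Itga7 and Itga10 were not called. These 5 called members (55.6%) stand beside a background of 40.1% of all genes tested that were called at an adjusted p under 0.05 by edgeR (19.6% lower and 20.4% higher in AS podocytes). In 4 members the WT and AS samples did not overlap, all of them lower in AS, beside 52.3% of all genes tested (26.0% lower and 26.4% higher). The median log2 fold change of the 9 members was -0.35, whereas that of all genes tested was 0.0061.

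**Figure D1:**
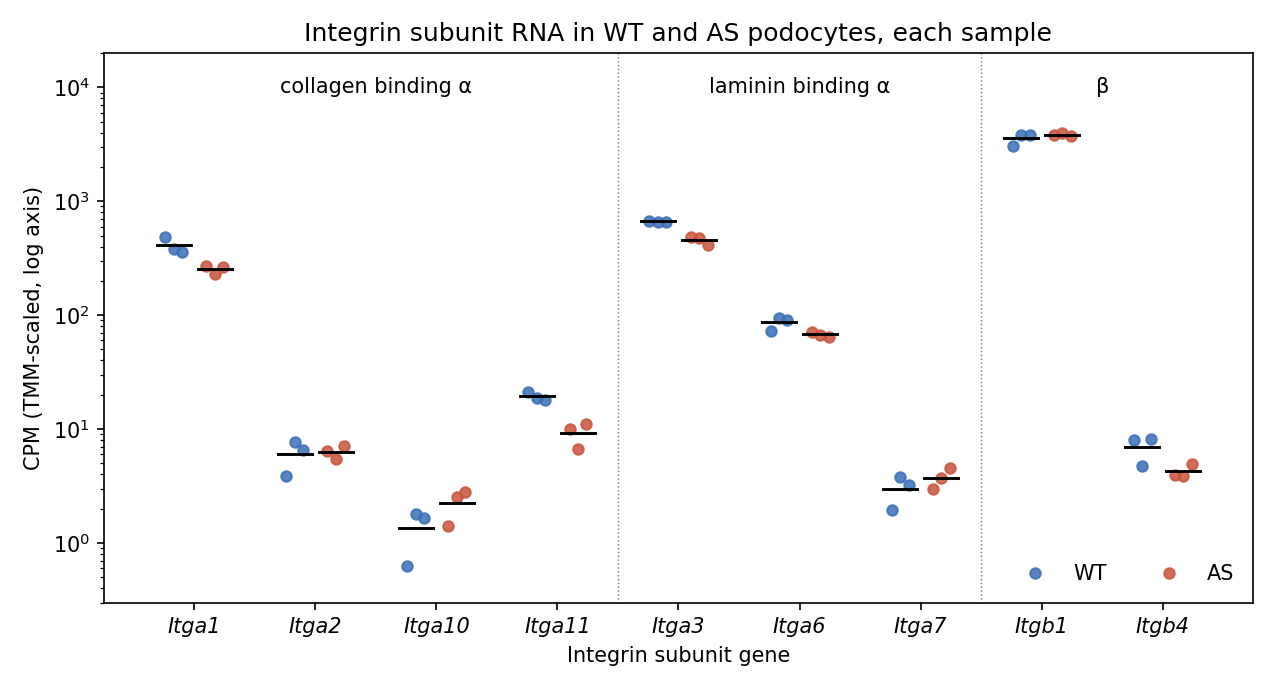
CPM of each of the 9 integrin genes on a log axis, 1 point per sample with the WT samples and the AS samples side by side and a bar at each group mean. All AS samples lie below all WT samples for Itga1, Itga3, Itga6 and Itga11, while the groups overlap for the other 5 genes.

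Among the collagen binding chains, Itga1 and Itga11 fell. Itga1 encodes the receptor chain that prefers type IV collagen, the collagen of basement membranes. It stood at 486, 381 and 362 CPM in WT and at 271, 230 and 264 CPM in AS samples. Every AS sample was below every WT sample, and WT replicate 1 was the highest of all. The mean was 409 ± 66.6 CPM in WT against 255 ± 21.9 CPM in AS (SD, n = 3 each), a ratio of 0.623 and a log2 fold change of -0.68 (SE 0.11, adjusted p = 0.00114 by edgeR).

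Itga11, whose receptor binds fibrillar collagens, showed the largest change of the members. Its values were 21.3, 18.8 and 18.1 CPM in WT and 10.1, 6.69 and 11.2 CPM in AS samples. The groups lay well apart, with AS replicate 2 the lowest. The mean fell from 19.4 ± 1.69 to 9.32 ± 2.34 CPM (SD, n = 3 each), a ratio of 0.480 and a log2 fold change of -1.06 (SE 0.17, adjusted p = 0.00100 by edgeR). It was the only member called with an absolute log2 fold change over 1, a limit that 11.2% of all genes passed with a call.

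Itga2, the α chain of the collagen receptor also known from platelets, showed no detectable difference at this depth. It was at 3.85, 7.67 and 6.57 CPM in WT and at 6.37, 5.45 and 7.16 CPM in AS samples, so that the AS values lay inside the WT range. The log2 fold change was 0.07, with an approximate 95% interval of -0.45 to 0.59 (adjusted p = 0.833 by edgeR). Itga10, known as a collagen receptor chain of cartilage, was the lowest member, at 0.631, 1.79 and 1.65 CPM in WT and at 1.42, 2.51 and 2.80 CPM in AS samples. The groups overlapped, as AS replicate 1 lay below WT replicates 2 and 3. Its log2 fold change of 0.73 was not called (95% interval -0.13 to 1.6, adjusted p = 0.163 by edgeR), but it was called with no filter on low counts (adjusted p = 0.0308) and with the replicate number as a block (adjusted p = 0.0242). The value is uncertain also because 46.3% of the 50-base coding stretches of Itga10 are found in Gm42957 on the same strand, which was counted at 0.0144 CPM in WT and at 0 in AS samples.

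Of the laminin binding chains, Itga3 and, less firmly, Itga6 fell. Itga3 is the chain of the principal podocyte laminin receptor. Its level was 667, 664 and 663 CPM in WT against 487, 472 and 415 CPM in AS samples. The WT samples were nearly equal, and the highest AS sample was far below them. The mean was 664 ± 2.20 CPM in WT and 458 ± 37.8 CPM in AS (SD, n = 3 each), a ratio of 0.690 and a log2 fold change of -0.54 (SE 0.07, adjusted p = 0.000326 by edgeR).

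Itga6, a laminin receptor chain of epithelia, was at 72.8, 95.3 and 91.0 CPM in WT and at 71.4, 67.2 and 64.5 CPM in AS samples. The groups did not overlap, but WT replicate 1 was only just above AS replicate 1. The log2 fold change was -0.35 (SE 0.10, adjusted p = 0.0156 by edgeR), and the ratio of the means was 0.783. The call was lost without WT replicate 2 (adjusted p = 0.0583), without WT replicate 3 (0.0551) and without AS replicate 3 (0.0692). Itga7, the main laminin receptor chain of muscle, was at 1.95, 3.78 and 3.21 CPM in WT and at 2.97, 3.75 and 4.54 CPM in AS samples, and the groups overlapped. Its log2 fold change was 0.34 (95% interval -0.24 to 0.91, adjusted p = 0.327 by edgeR). Itga7 lies on chromosome 10, whose 523 expressed genes had a median log2 fold change 0.31 above that of all genes, and with chromosome medians removed its log2 fold change was 0.031.

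Itgb1, the β chain that pairs with all 7 of these α chains, was at 3082, 3802 and 3817 CPM in WT and at 3809, 3975 and 3733 CPM in AS samples. WT replicate 1 was low, and the other 5 samples lay together. The means of 3567 ± 420 and 3839 ± 124 CPM (SD, n = 3 each) gave a log2 fold change of 0.11 (95% interval -0.10 to 0.32, adjusted p = 0.406 by edgeR). Itgb1 lies on chromosome 8, whose 611 expressed genes had a median 0.31 above that of all genes, and with chromosome medians removed its log2 fold change turned to -0.20 (adjusted p = 0.130). Under neither scaling was it called.

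Itgb4, which pairs with α6 only, was at 8.09, 4.79 and 8.11 CPM in WT and at 3.97, 3.91 and 4.92 CPM in AS samples. The groups overlapped, since WT replicate 2 was just below AS replicate 3. The log2 fold change was -0.71 (SE 0.21, adjusted p = 0.0241 by edgeR), and the means were 6.99 ± 1.91 and 4.27 ± 0.568 CPM (SD, n = 3 each). The call was lost without WT replicate 1 (adjusted p = 0.0504), WT replicate 3 (0.0822), AS replicate 1 (0.0701) or AS replicate 2 (0.0757). It held when WT replicate 2 or AS replicate 3, the samples that overlap, was left out.

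**Figure D2:**
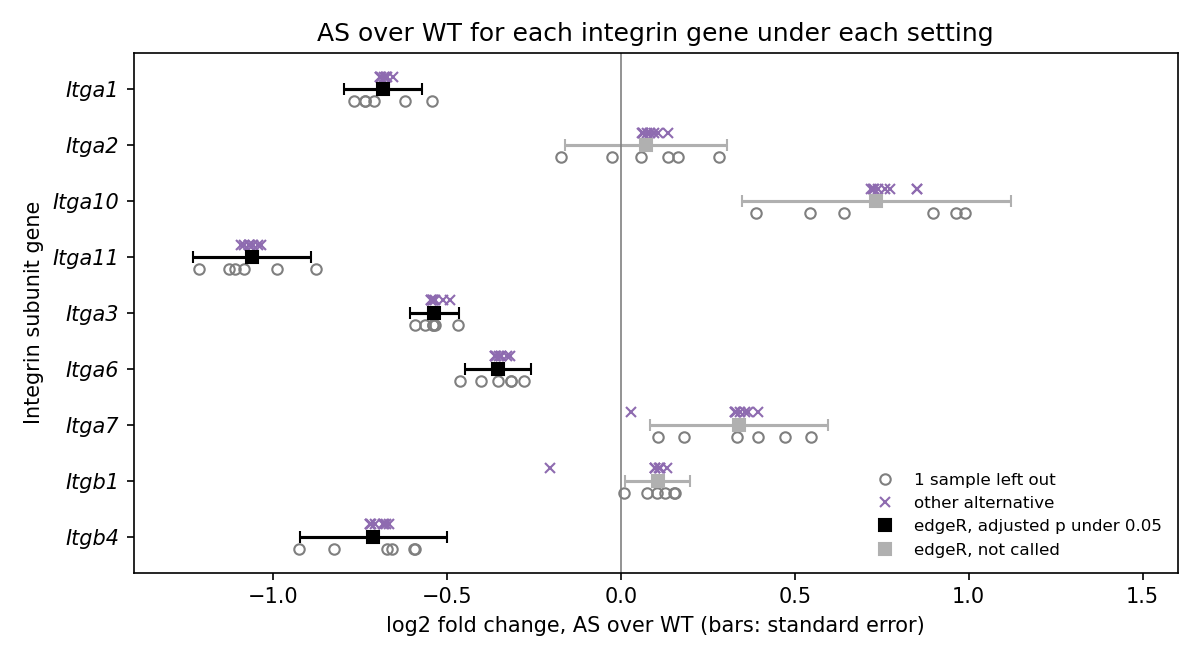
Log2 fold change, AS over WT, of each member. Squares are edgeR values with their standard error, black where the adjusted p is under 0.05 and grey where it is not, open circles are the fits with 1 sample left out, and crosses are the other alternatives. Itga1, Itga3 and Itga11 stay below 0 and called throughout, whereas Itga2 and Itgb1 have values on both sides of 0.

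Itga1, Itga3 and Itga11 were called lower in all 14 alternative fits, with log2 fold changes of -0.77 to -0.54, -0.59 to -0.47 and -1.21 to -0.87. Without WT replicate 3 these 3 were the only members called.

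To set the promoters of these 3 genes beside that of Itgb1, which was not called, the 250 bases before the transcription start are given from RefSeq (GRCm38.p6), for Itga3 before the outermost of 2 listed starts. Capitals mark the GC box GGGCGG. It was searched on both strands and was found in 32.7% of the 32851 promoters of the same length in the table. Itga1 lies at chr13:115101965-115102214 on the minus strand, Itga3 at chr11:95076715-95076964 on the minus strand, Itga11 at chr9:62677605-62677854 on the plus strand and Itgb1 at chr8:128685404-128685653 on the plus strand.
Itga1: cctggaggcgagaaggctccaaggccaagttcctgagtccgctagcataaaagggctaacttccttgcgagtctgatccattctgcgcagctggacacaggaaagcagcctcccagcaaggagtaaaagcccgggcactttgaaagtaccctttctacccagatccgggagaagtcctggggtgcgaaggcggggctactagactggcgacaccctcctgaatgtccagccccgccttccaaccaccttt
Itga3: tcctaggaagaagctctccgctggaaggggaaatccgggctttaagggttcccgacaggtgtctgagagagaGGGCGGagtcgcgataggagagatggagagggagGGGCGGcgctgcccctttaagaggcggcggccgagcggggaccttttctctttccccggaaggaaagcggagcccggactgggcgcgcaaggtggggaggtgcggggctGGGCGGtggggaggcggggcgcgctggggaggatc
Itga11: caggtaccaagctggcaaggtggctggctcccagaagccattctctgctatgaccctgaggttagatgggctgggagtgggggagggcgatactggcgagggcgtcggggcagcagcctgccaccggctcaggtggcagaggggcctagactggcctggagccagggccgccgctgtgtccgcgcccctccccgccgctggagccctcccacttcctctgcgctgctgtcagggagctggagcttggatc
Itgb1: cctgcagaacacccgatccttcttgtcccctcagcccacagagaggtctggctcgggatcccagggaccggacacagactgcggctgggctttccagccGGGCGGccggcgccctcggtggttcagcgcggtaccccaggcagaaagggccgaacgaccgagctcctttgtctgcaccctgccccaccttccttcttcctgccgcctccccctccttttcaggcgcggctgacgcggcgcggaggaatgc
Itga3 holds 3 GC boxes, 178, 144 and 35 bases before the start, and Itgb1 holds 1, 151 bases before it, while Itga1 and Itga11 hold none. GC content was 57.6% for Itga1, 67.6% for Itga3, 68.4% for Itga11 and 68.0% for Itgb1, all above the median of 52.4% over all promoters. On either strand, no TATA box (TATAAA, in 12.4% of all promoters), AP-1 site (TGANTCA, 6.75%) or CArG box (1.47%) was found in these promoters or in those of Itga2 and Itga10. The motifs do not overlap one another, and a match or its absence describes these letters only.

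Between genes, levels were compared per length, as CPM per kb of the union of a gene's exons in GENCODE M21. Itgb1 was by far the highest in both lines, at 874 ± 103 in WT and 941 ± 30.4 in AS (SD, n = 3 each). Itga3 followed at 116 ± 0.385 and 80.2 ± 6.62 CPM per kb, then Itga1 at 22.0 and 13.7, Itga6 at 9.57 and 7.5 and Itga11 at 3.79 and 1.82 CPM per kb in WT and AS. The remaining genes were all at or under 1 CPM per kb. The sample ranges of neighbours in this order were separate except for Itgb4 with Itga2 and Itga7 with Itga10 in WT, and for Itgb4 with Itga7 and Itga7 with Itga10 in AS samples. The Itgb1 level was 7.51 times that of Itga3 in WT and 11.7 times in AS podocytes. The gap between Itga3 and Itga1 depends on the length used. Per coding kb Itga3 was at 207 and 143 CPM and Itga1 at 116 and 72.1 CPM in WT and AS.

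The α genes were next summed and set against their β partner, a sum that rests mainly on Itga3 and Itga1. The summed level of the 7 α genes was 153 ± 2.66 CPM per kb in WT and 105.1 ± 6.47 in AS samples (SD, n = 3 each), a ratio of 0.686. Relative to Itgb1, this sum came to 0.207, 0.164 and 0.161 in WT and to 0.119, 0.108 and 0.108 in AS samples. All AS ratios were below all WT ratios, and WT replicate 1 was the highest. The AS mean was 0.630 of the WT mean, with an exact permutation p of 0.1, two-sided, the smallest that 3 against 3 samples can give, and it was 0.603 to 0.687 when any 1 sample was left out. With all 12 α genes that can pair with Itgb1, a set added after the values were seen, it was 0.753. The ratio was not computed with chromosome medians removed, a setting under which the log2 fold change of Itgb1 turned from 0.11 to -0.20. How much of the lower ratio goes with the shift of chromosome 8 was not tested. These are ratios of RNA, and protein at the cell surface was not measured in these libraries.

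Within the α genes, Itga3 made up 76.0 ± 1.07% of the summed level per kb in WT and 76.3 ± 2.22% in AS samples. The collagen binding genes together took 19.8, 16.7 and 16.1% in WT and 15.9, 14.2 and 18.2% in AS samples. The groups overlapped, and the difference of -1.45 percentage points was smaller than the spread between samples (exact permutation p = 0.4, two-sided). Itga11 alone went from 2.47 ± 0.172% to 1.74 ± 0.490% and Itga6 from 6.26 ± 0.946% to 7.14 ± 0.102%. Shares depend on the length used: per coding kb the collagen binding share was 34.3% in WT and 31.9% in AS, as Itga1 has 18599 bases of exon of which 3537 are coding. On that scale Itga3 made up 58.0% in WT and 59.1% in AS samples.

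**Figure D3:**
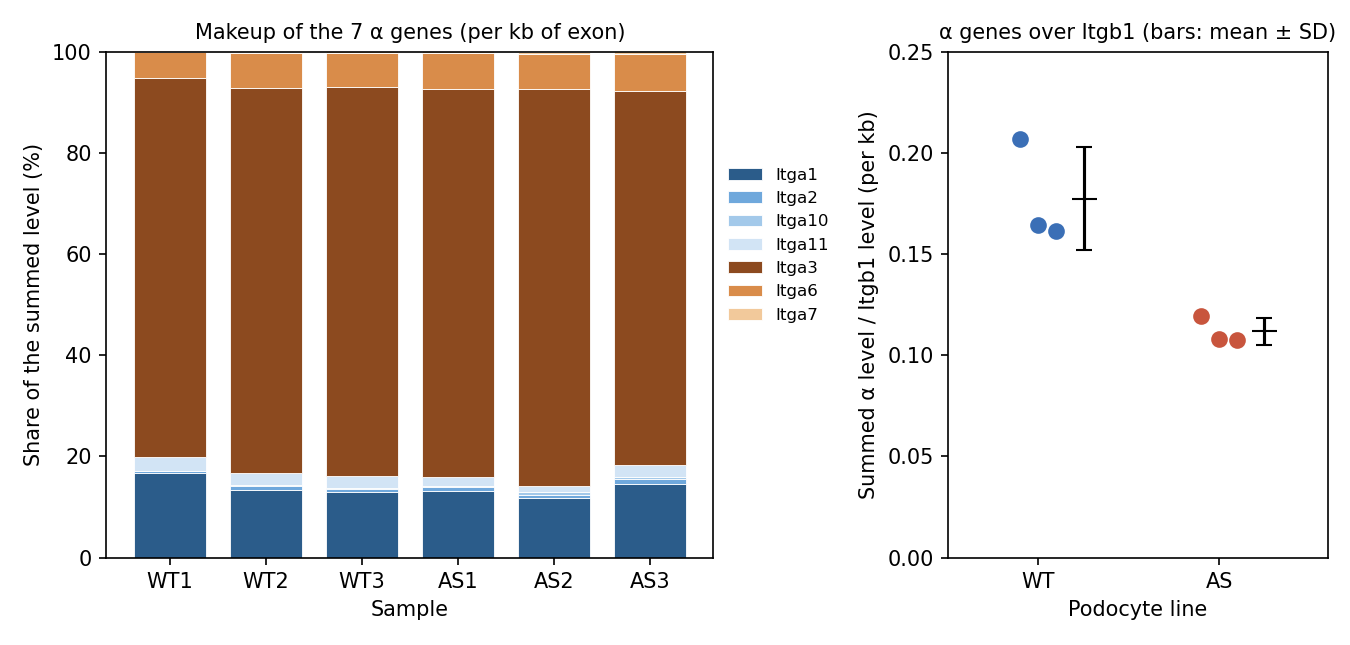
Left, share of each α gene in the summed α level of each sample, in percent of CPM per kb of exon. Right, ratio of the summed α level to Itgb1 in each sample, with the mean and SD of each line. Itga3 takes about the same share in every sample, and the ratio lies lower in the 3 AS samples.

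The ligands of these receptors changed in both directions. Of 15 collagen chains bound by the collagen receptors, 13 were tested, 5 rose and 3 fell, with a median log2 fold change of 0.30. The share called was 61.5% of those tested, beside 40.1% of all genes tested. With no filter on low counts 8 of these chains were called higher. Of type IV this list holds only Col4a1 and Col4a2. Col4a3, the deleted gene, is not on it and fell from 1087 to 68.8 CPM (-3.98). Col1a1 rose from 24.3 ± 4.15 to 477 ± 99.1 CPM (log2 fold change 4.29, adjusted p = 1.87e-07 by edgeR), Col3a1 from 9.44 ± 1.58 to 198 ± 32.9 CPM (4.39, adjusted p = 6.15e-08) and Col6a1 from 59.9 ± 7.64 to 302 ± 23.4 CPM (2.34, adjusted p = 2.41e-07). Col1a1 and Col3a1, which encode chains of the fibrillar types I and III, are also 2 of the fibroblast markers above. Fibrillar chains fell too: Col1a2, the other chain of type I, fell from 30.6 ± 7.12 to 0.999 ± 0.299 CPM (-4.92, adjusted p = 5.14e-07) and Col5a2, a chain of type V, from 2155 ± 485 to 240 ± 18.2 CPM (-3.17, adjusted p = 7.31e-07), both named after their values were seen. Col4a1, a basement membrane chain and the most counted of the list, was at 3945 ± 797 and 3790 ± 333 CPM and was not called (adjusted p = 0.765). Of 11 laminin chains, all tested, 4 fell and none rose (36.4% called), with a median of -0.05. Lama2 fell from 50.1 ± 6.66 to 12.2 ± 1.31 CPM (log2 fold change -2.05, adjusted p = 1.24e-06 by edgeR), and Lama1 fell by 1.87 on the log2 scale (adjusted p = 0.000294). Lamb1, the most counted laminin chain, was at 864 ± 54.7 and 914 ± 21.9 CPM and was not called (adjusted p = 0.374). Without WT replicate 1, 3 laminin chains were called higher.

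Of 11 receptors for collagen and laminin that are not integrins, 9 were tested, 3 rose and 5 fell, with a median log2 fold change of -0.61. The share called was 88.9% of those tested, beside 40.1% of all genes tested. The laminin receptor Bcam fell from 126 ± 8.77 to 44.9 ± 2.83 CPM (log2 fold change -1.49, adjusted p = 5.09e-07 by edgeR) and Dag1, which encodes dystroglycan, from 829 ± 140 to 544 ± 55.3 CPM (-0.61, adjusted p = 0.00306). The collagen uptake receptor Mrc2 rose from 15.3 ± 2.40 to 52.2 ± 2.98 CPM (1.77, adjusted p = 2.34e-06) and the syndecan Sdc2 from 357 ± 13.7 to 650 ± 13.4 CPM (0.87, adjusted p = 5.25e-06). Of 17 other integrin subunits, 10 were tested, 4 rose and 3 fell (70% called), with a median of -0.24. Itga5, the fibronectin receptor chain that also pairs with β1, rose from 117 ± 9.41 to 194 ± 3.47 CPM (log2 fold change 0.73, adjusted p = 3.12e-05 by edgeR). Itgav, an α chain of RGD binding integrins, fell from 633 ± 12.8 to 503 ± 14.1 CPM (-0.33, adjusted p = 0.00154), and Itga2b, the platelet α chain, rose from 2.10 ± 0.486 to 4.59 ± 0.261 CPM (1.13, adjusted p = 0.00159).

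Inside the cell, integrins are switched on and tied to actin by adaptor proteins. Of 34 such genes, all tested, 8 rose and 7 fell, with a median log2 fold change of 0.04. The share called was 44.1%, near the 40.1% of all genes tested. Fermt1, which encodes kindlin-1, fell from 8.76 ± 2.63 to 0.17 ± 0.133 CPM (log2 fold change -5.61, adjusted p = 7.89e-06 by edgeR), and Tns1, which encodes tensin-1 and had the highest mean over all 6 samples, from 3056 ± 497 to 1261 ± 115 CPM (-1.28, adjusted p = 4.11e-05). Parvb, which encodes β-parvin, rose from 18.3 ± 2.97 to 133 ± 3.33 CPM (2.86, adjusted p = 1.08e-07) and Tns2, which encodes tensin-2, from 66.4 ± 0.846 to 114.9 ± 0.7 CPM (0.79, adjusted p = 2.42e-06). Of 11 tetraspanins, membrane organizers that associate with laminin binding integrins, 9 were tested, 2 rose and 3 fell (55.6% called), with a median of -0.01. Cd151, the close partner of α3β1 and α6β1, fell from 461 ± 4.86 to 373 ± 17.9 CPM (log2 fold change -0.30, adjusted p = 0.00291 by edgeR). Tspan14 fell by 0.62 and Cd63 rose by 0.27 on the log2 scale (adjusted p = 0.000293 and 0.00558), and Cd81, the most counted, was at 896 ± 19.9 and 889 ± 21.3 CPM (adjusted p = 0.901). Of 6 hemidesmosome partners of α6β4, 4 were tested and 1, Cd151 again, fell (25% called), with a median of 0.19. The linker genes Plec and Dst had log2 fold changes of 0.19 and 0.20 and were not called (adjusted p = 0.160 and 0.584). With chromosome medians removed 5 adaptor genes and 1 tetraspanin were called higher, and without AS replicate 2 this was so for 1 tetraspanin and 1 hemidesmosome gene.

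**Figure D4:**
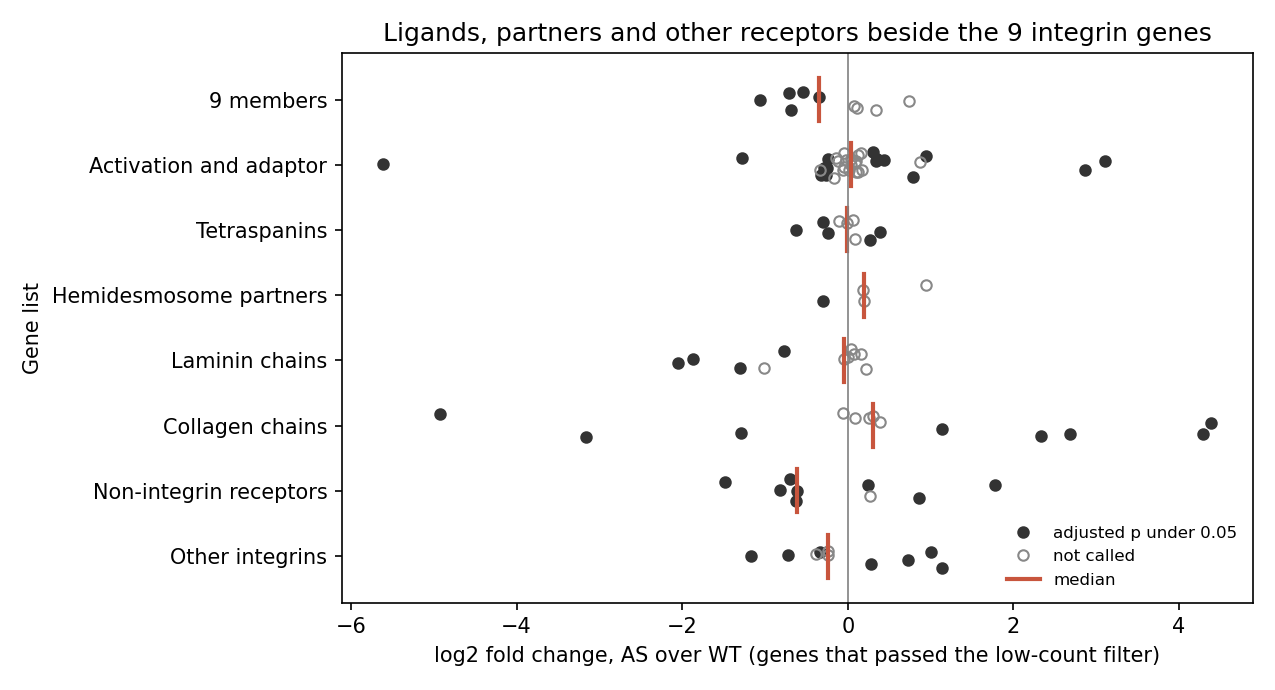
Log2 fold change, AS over WT, of the genes that passed the filter in each list, 1 point per gene with a red bar at the median, and the 9 members in a row of their own. The member median is -0.35, the medians of the ligand, adaptor and receptor lists run from -0.61 to 0.30, and single genes reach beyond 4 in either direction.

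By the pattern over the 6 samples, the genes most like Itga11 were Synm, an intermediate filament gene (Pearson r = 0.997 of log2 CPM), Plp2, a membrane protein gene (0.996), and Clpb, a mitochondrial chaperone gene (0.992). The 6 points fall into 2 lines, and r was over 0.9 for 1052 of 12763 genes (8.24%), so this is a description only.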

How the data were processed

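The 3 WT and 3 AS podocyte samples were measured by RNA-seq. The values deposited by the authors are raw counts per gene for each sample, not normalized. The submitters' processing notes name FastQC, Trim Galore, STAR, edgeR and the build mm39, whereas counting tool, annotation release and strand setting were not given in the sources used here. Among 57132 identifiers, 51880 matched GENCODE M21 without the version, and 28476 genes had no count. Lengths and sequences are from GENCODE M21 and RefSeq on GRCm38, an older build than that of the counts.

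The software was edgeR 4.0.16, DESeq2 1.42.0 and limma 3.58.1 under R 4.3.3, and Python 3.11.15. Genes kept by filterByExpr (minimum count 10, minimum total 15) were scaled by TMM and compared with a two-sided quasi-likelihood test of edgeR on genotype alone, adjusted by Benjamini-Hochberg over all 16263 genes. Standard errors are approximate (the log2 fold change over the root of its F statistic), and intervals use them with the t distribution of the fit. Correlations used log2(CPM + 0.5). The test was tested on simulated data. Depth was 45417221 to 54290968 counts per sample, and limits at 0 cover counting error only, because reads without molecular identifiers may be PCR copies of one another.

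The members, the gene lists and the marker lists were chosen with earlier results of these data known. Named beside the members were Col4a3, of each list at most 3 genes with the smallest adjusted p at a mean CPM of at least 1 and the gene with the highest mean CPM, and the 3 genes most correlated with the member that fell most. Nphs1, Tcf21, Podxl, Tagln, Pdgfra, Lum, Col1a2 and Col5a2 were named after their values were seen, and the same rule gave the other markers. Alternatives were DESeq2 size factors, library size only, no filter, a replicate block, a filter at a mean CPM of 1, chromosome medians removed, DESeq2, limma-voom, each sample left out in turn, and other lengths for the levels between genes. Some items the rule names are not reported here. No column of the table was left unused, and no outlier test was run on the groups of 3.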

Additional observations from a re-analysis of the deposited data

How the results depend on the processing

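Itga1, Itga3 and Itga11 were called lower in all 14 alternative fits. The number of members called was 3 to 4, all of them lower in AS, with 1 sample left out (3 without WT replicate 3), and 6 with no filter on low counts and with the replicate block. In both of the latter, 1 member, Itga10, was called higher, where 0 were called otherwise. The sign turned for Itga2 without WT replicate 1 (-0.17) and without AS replicate 3 (-0.026), with a range over samples left out of -0.17 to 0.28, and for Itgb1 with chromosome medians removed (-0.20). The cause was not tested. All 12 α genes in place of 7 moved the ratio to Itgb1 from 0.630 to 0.753, and coding length gave 0.620. This ratio was not computed with chromosome medians removed. The difference in the collagen binding share ran from -2.52 to -0.31 percentage points with 1 sample left out. Over all genes, 5120 to 7066 were called, and 5120 to 6776 with 1 sample left out.

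The sets 1 to 3 are numbered in both lines, and the deviations from the group means of samples with the same number correlated at 0.284, 0.160 and 0.0801. Between samples with unlike numbers the correlations ran from -0.231 to 0.139. Each AS sample correlated best with the WT sample of its number. The labels name the sets by number only, so whether they pair the samples is not settled. With the replicate block 7066 genes were called in place of 6517, and 6 members in place of 5, Itga10 being added with a log2 fold change of 0.78 (adjusted p = 0.0242 by edgeR). From the WT side, WT replicate 3 correlated better with AS replicate 2 (0.139) than with AS replicate 3 (0.0801).

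The low counts of Itga10 (32 to 154 reads per sample), Itga7, Itga2 and Itgb4 limit what these libraries can show. The interval of Itga2 holds changes of 0.35 on the log2 scale, the size called for Itga6, in either direction, and those of Itga7 and Itga10 hold a rise of that size.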
